A study of Mus with 18 samples.

Results

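The levels of 10 mouse genes of glutathione-dependent detoxification were followed across cultured cells and skeletal muscle: 7 glutathione transferases (Gsta4, Gstm1, Gstm2, Gstm5, Gstp1, Gsto1 and Mgst1) and 3 glutathione peroxidases (Gpx1, Gpx3 and Gpx4). They were taken by symbol, and all 10 were found among the 21401 symbols of each of the 2 sets of expression values. The study asked whether moringa isothiocyanate-1 (MIC-1), an isothiocyanate from Moringa oleifera seeds, alters the response of muscle cells and muscle to lipopolysaccharide (LPS), the bacterial outer-membrane component that triggers inflammation. RNA was sequenced from 18 samples, 3 in each of 6 groups. Cultured libraries were labelled as wild type C2C12, a mouse myoblast line, and as control (saline vehicle), LPS (1 μg/mL) or LPS-MIC-1 (LPS with 10 μM MIC-1 for 24 h). The study's own text names a lower MIC-1 concentration for its transcriptome of cultured cells than the labels do, and ethanol rather than saline as the vehicle. Tissue libraries came from the gastrocnemius muscle of wild type C57BL/6 male mice. These were control (saline vehicle by the labels, dilute DMSO by the study's text), LPS (10 mg/kg, intraperitoneal, muscle taken after 16 h) and LPS-MIC-1 (80 mg/kg MIC-1 in dilute DMSO by gavage daily for 3 days, then the same LPS dose). Nothing states that the cultured libraries of a group came from separate cultures, so p-values for them measure only the spread between these libraries.

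Glutathione transferases join the tripeptide glutathione to electrophiles such as isothiocyanates and lipid peroxidation products, and their cytosolic classes are named alpha (Gsta), mu (Gstm), pi (Gstp) and omega (Gsto). Mgst1 is a membrane-bound transferase of another family. Glutathione peroxidases use glutathione to reduce peroxides: Gpx1 is the cytosolic enzyme of most cells, Gpx3 is secreted into plasma, and Gpx4 reduces lipid peroxides within membranes. All 3 peroxidases contain selenocysteine. Several transferase genes are known targets of the transcription factor Nrf2, which electrophiles activate.

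Libraries of the cultured cells were first checked against their label. The macrophage marker list, with 14 of 16 genes in the values, summed to 10804 to 10848 FPKM (fragment counts scaled for transcript length and sequencing depth) in the control libraries and to 7761 to 7996 FPKM in those labelled LPS. Its sum in LPS-MIC-1 was 80.5 to 290.4 FPKM, the highest being replicate 1. The myogenic list, 13 of 14 genes, reached 1.46 to 3.76 FPKM among control libraries, where 5 genes were listed at 0 throughout, 4.75 to 6.27 FPKM among LPS libraries, where 3 were, and 1475 to 1798 FPKM among LPS-MIC-1 libraries, where none was. Lyz2, the macrophage marker with the highest mean in control, had group means of 4694, 1838 and 17.1 FPKM, the last with 48.8 in replicate 1. The muscle intermediate filament gene Des had 0.126, 0.498 and 398 FPKM in the same order, the LPS mean with 1.19 in replicate 3. Thus the libraries labelled control and LPS lacked the defining markers of C2C12 cells, and every cultured comparison that involves LPS-MIC-1 also compares libraries of a different marker profile. Y-linked genes (4 of 5 in the values) summed to 52.1 to 65.9 FPKM in the control and LPS libraries and to 0.0488 to 1.62 FPKM in LPS-MIC-1, whereas Xist, transcribed from the inactive X chromosome, had 0.00823 to 0.118 FPKM in the former and 14.8 to 41.7 in the latter. The treatment and these differences in identity cannot be told apart, and whether libraries were exchanged was not tested.

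**Figure D1:**
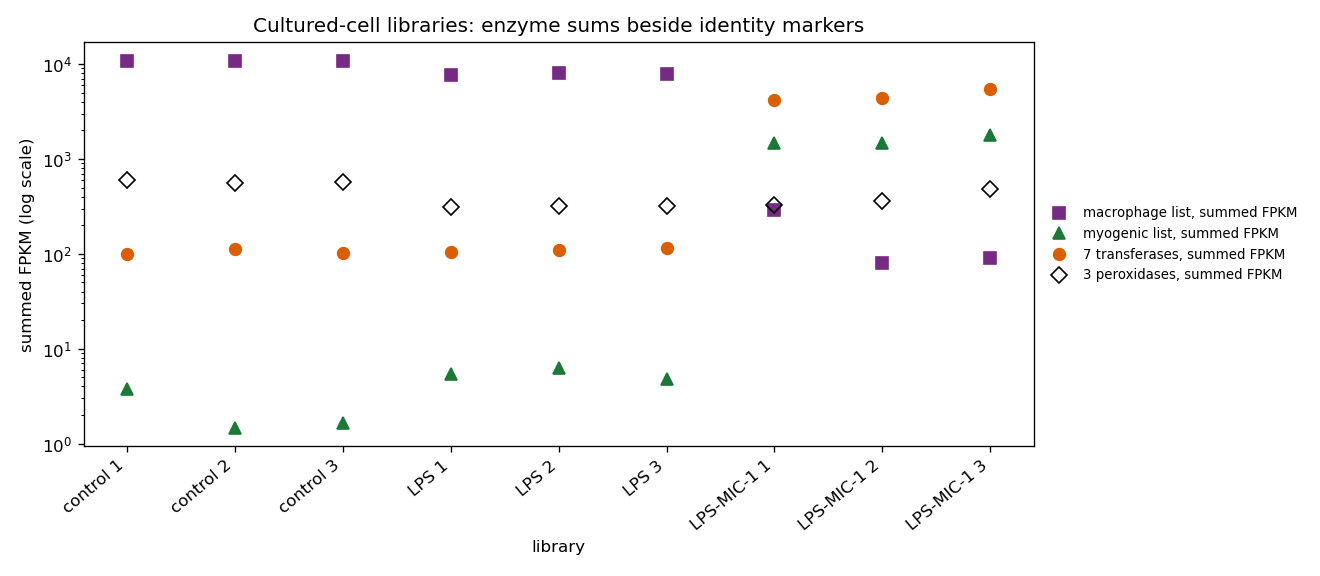
Summed FPKM per cultured library, on a log scale, of the macrophage list, the myogenic list, the 7 transferases and the 3 peroxidases. The transferase sum stood at 100.4 to 114 FPKM in the 6 libraries rich in macrophage markers and at 4168 to 5417 in the 3 libraries rich in myogenic markers, while the peroxidase sum stayed between 308 and 593.

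Ranked by mean FPKM, the peroxidase Gpx1 was the most abundant of the 10 genes in the control libraries with 519 ± 15.5 FPKM (SD, n = 3). Gsto1 and Gpx4 followed with 63.4 ± 5.01 and 52.9 ± 6.40 FPKM and overlapped with each other. Gstp1 (23.0 ± 1.44) and Gstm1 (18.4 ± 1.36) came next, and each was apart from its neighbours. Gstm5, Gsta4, Gstm2, Gpx3 and Mgst1 were each at or below 0.193 FPKM in every control library, in an order that overlapped throughout, and Mgst1 was listed at 0 in all 3. Among LPS libraries the order was Gpx1, Gpx4, Gstp1, Gsto1 and Gstm1, each apart from the next, ahead of the same 5 near 0. LPS-MIC-1 libraries had another order. There Gstp1 led with 3036 ± 443 FPKM, the 35th highest mean of all symbols, followed by Gsta4 (661 ± 119), Gsto1 (442 ± 52.7) and Gstm1 (404 ± 46.3), of which the last 2 overlapped.

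Differences were tested with limma on log2(FPKM + 0.1), with Benjamini-Hochberg adjustment over the 10877 genes of the cultured libraries and the 9475 genes of muscle whose mean exceeded 1 FPKM. To be called, a gene needed a change of more than 1 on the log2 scale in either direction, together with an adjusted p under 0.001 (cultured cells) or 0.05 (muscle). All 10 genes passed the filter in both experiments. In the cultured libraries, however, 5 of them (Gsta4, Gstm2, Gstm5, Mgst1 and Gpx3) passed only through LPS-MIC-1, so a difference of that group from the others followed from the filter. The smallest two-sided p that an exact permutation of 3 against 3 libraries allows is 0.1, which is what genes without overlap between the groups have.

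Between the libraries labelled LPS and control, Gstp1 rose and Gpx1 fell. Gstp1, the pi class transferase, had 21.7, 24.5 and 22.8 FPKM in control and 51.7, 55.2 and 57.3 in LPS, without overlap. Its log2 fold change was 1.25 (SE 0.102, adjusted p = 1.52e-05 by limma). Gpx1 had 533, 502 and 522 FPKM in control and 238, 258 and 253 in LPS, also without overlap, for a log2 fold change of -1.06 (SE 0.102, adjusted p = 4.14e-05 by limma). These were 1 of the 10 genes in each direction, beside 10.9% of all tested genes called higher and 10% called lower. Without overlap between the groups, 3 members stood higher (Gstm2, Gstp1 and Gpx4) and 2 lower (Gsto1 and Gpx1), beside 39.4% and 40.1% of all tested genes. Gstm2 was near 0 in both groups, with 0, 0 and 0.0571 FPKM in control and 0.138, 0.0697 and 0.0695 in LPS. Such values rest on few reads, and the gene was tested only through LPS-MIC-1. Gsto1, the omega class enzyme, stood at 61.5, 69.1 and 59.6 FPKM in control and 35.2, 37.1 and 38.3 in LPS. Its groups were apart, and its log2 fold change of -0.78 (SE 0.0931, adjusted p = 0.000139 by limma) passed the adjusted p but not the fold threshold. By the adjusted p alone the counts were thus 1 higher and 2 lower, beside 18.6% and 19.3%.

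The other members did not pass between LPS and control. Gstm1, the most abundant mu class gene of these libraries, had 16.8, 19.0 and 19.3 FPKM in control and 17.1, 17.0 and 16.6 in LPS, and the interval of 2 standard errors around its log2 difference ran from -0.29 to 0.05. Gpx4 had 60.2, 50.1 and 48.4 FPKM in control and 70.4, 63.0 and 66.1 in LPS, all of the latter higher, with a log2 difference of 0.33 (SE 0.228, adjusted p = 0.237 by limma). Gsta4, the alpha class enzyme that conjugates the lipid peroxidation product 4-hydroxynonenal, had 0.193, 0 and 0.0626 FPKM in control and 0.151, 0.153 and 1.53 in LPS. The highest of these was LPS replicate 3, the library with the most Des. Mgst1 was likewise above 0 in that library alone among the 6, at 0.233 FPKM.

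LPS-MIC-1 libraries held far more RNA of the 7 transferases than LPS libraries. Of 16 other tested transferases, 6 were called higher and 5 lower, beside 24.3% and 25.6% of all tested genes. Of these 16, 4 passed the filter only through LPS-MIC-1. The 7 transferases together summed to 104, 109.7 and 114 FPKM in the LPS libraries, against 4168, 4377 and 5417 FPKM with MIC-1. All 7 transferases and Gpx3 were called higher, 8 of 10 genes, and 0 were called lower, beside 24.3% and 25.6% of all tested genes. At an unadjusted p under 0.05 by limma the counts were also 8 and 0, but no share of all tested genes was taken there. The same 8 were past the adjusted p alone (32.8% of all tested genes higher, 33.7% lower) and did not overlap between the groups (41.8% and 43.7%). Of the 5 genes over 1 FPKM in every group, 3 were called higher (Gstm1, Gstp1 and Gsto1), beside 18.9% of the 8567 genes of that kind. Without LPS replicate 3 and LPS-MIC-1 replicate 1, the libraries that carried traces of the other profile, the counts were again 8 and 0. Of the 8, however, 5 (Gsta4, Gstm2, Gstm5, Mgst1 and Gpx3) passed the filter only through LPS-MIC-1. Their differences followed from the filter, so the repeated counts add no support for them.

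Gstp1 made up most of that sum. It had 2696, 2877 and 3537 FPKM in LPS-MIC-1 against at most 57.3 in LPS, a ratio of means of 55.4 and a log2 fold change of 5.78 (SE 0.102, adjusted p = 3.6e-09 by limma). Gstp2, the neighbouring pi class paralog whose reads can be shared with Gstp1, had 0.801 ± 0.177 FPKM (SD, n = 3) with LPS and 18.1 ± 4.21 FPKM with LPS and MIC-1. The Gstp1 level was therefore 132 to 199.8 times that of Gstp2 within each LPS-MIC-1 library.

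Gsta4 showed the widest range of the 10 genes. The LPS-MIC-1 libraries held 598, 587 and 799 FPKM, a fitted log2 change against LPS of 10.45 (SE 0.728). Gsta4 passed the filter only through LPS-MIC-1, so this difference followed from the filter. Over the alternatives in constant, filter, scaling and model the value ran from 8.77 to 10.90. In the LPS group replicate 3 was at 1.53 FPKM and the others at 0.151 and 0.153. Without replicate 3 the log2 fold change was 11.34 (SE 0.414).

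The 3 mu class members, Gstm1, Gstm2 and Gstm5, were called higher but at different levels. They lie in a run of mu class genes in the order Gstm5, Gstm7, Gstm6, Gstm3, Gstm2, Gstm1, Gstm4 in the RefSeq annotation. Their neighbour Gstm4 had 2.13 ± 0.143 FPKM with LPS and 0.280 ± 0.297 with MIC-1 (SD, n = 3), a log2 difference of -2.95 (SE 0.602, adjusted p = 0.00184 by limma), short of the threshold of 0.001. Gstm1 had 376, 379 and 457 FPKM in LPS-MIC-1, for a log2 fold change of 4.57 (SE 0.0861, adjusted p = 4.02e-09 by limma). Gstm2 went from 0.138, 0.0697 and 0.0695 FPKM to 38.7, 31.0 and 39.9. Gstm5 went from 0.0818, 0.166 and 0.165 to 34.7, 34.5 and 48.6 FPKM. Gstm1 was thus the most abundant of the 3, at 9.41 to 10.98 times the level of Gstm5 within each LPS-MIC-1 library. Fitted log2 fold changes were 7.58 for Gstm2 and 7.37 for Gstm5, but such values of genes near 0 FPKM move with the added constant. With a constant of 1 they were 5.09 and 5.13, and with 0.01 they were 8.53 and 8.10.

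Gsto1, already over 35 FPKM in LPS, reached 391, 438 and 496 FPKM in LPS-MIC-1, a ratio of means of 11.98 and a log2 fold change of 3.57 (SE 0.0931, adjusted p = 1.12e-08 by limma). Mgst1 had 33.8, 31.1 and 39.8 FPKM in LPS-MIC-1, whereas it was listed at 0 in LPS replicates 1 and 2. Its fitted log2 fold change of 7.87 ran from 5.06 to 10.23 with constants of 1 and 0.01.

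The peroxidases did not move together, though the difference of Gpx3 followed from the filter, which it passed only through LPS-MIC-1. Gpx3, the secreted enzyme, was at or below 0.0440 FPKM in LPS and had 25.7, 19.7 and 24.7 FPKM in LPS-MIC-1, a fitted log2 fold change of 7.51 that ran from 4.56 to 9.56 over the same constants. Gpx1 had 244, 261 and 328 FPKM in LPS-MIC-1 and overlapped with LPS, with a log2 difference of 0.14 (interval of 2 standard errors from -0.06 to 0.35, adjusted p = 0.224 by limma). Its sign turned under quantile normalization, to -0.26. Gpx4 had 61.4, 82.96 and 125 FPKM in LPS-MIC-1, where its coefficient of variation of 35.9% was the highest of the 10 genes, and a log2 difference from LPS of 0.37 (interval from -0.08 to 0.83, adjusted p = 0.157 by limma).

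**Figure D2:**
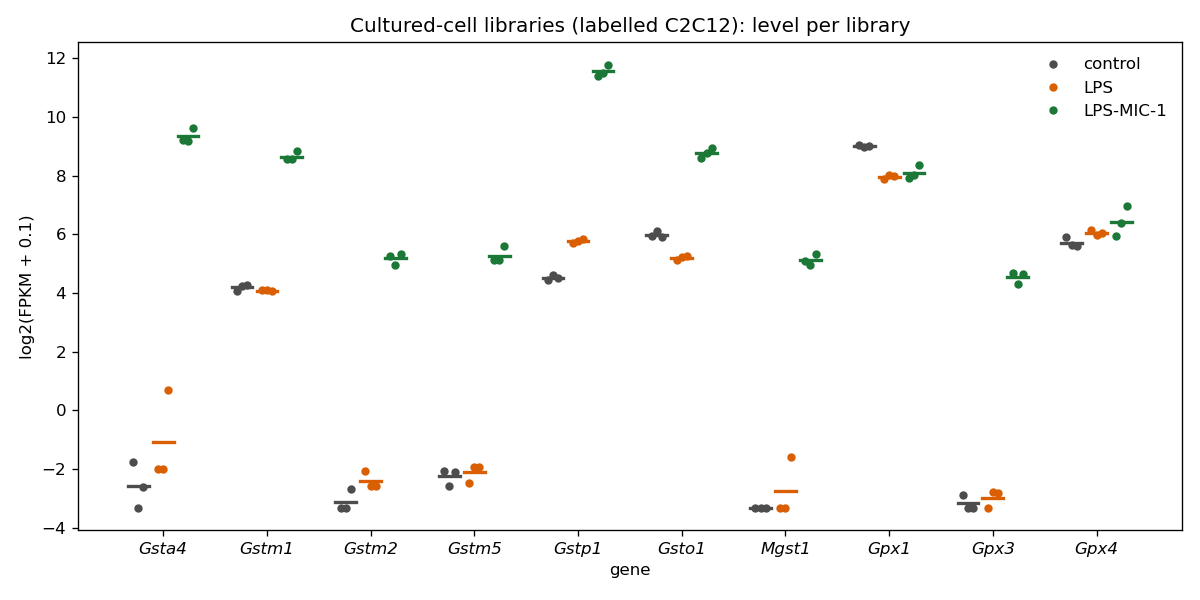
Level of each gene in each cultured library as log2(FPKM + 0.1), with points for libraries and bars for group means. In LPS-MIC-1 the 7 transferases and Gpx3 lie above both other groups, whereas Gpx1 and Gpx4 overlap with LPS. For Gsta4, Gstm2, Gstm5, Mgst1 and Gpx3 this followed from the filter, which they passed only through LPS-MIC-1.

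Against control, LPS-MIC-1 libraries had the same 8 genes called higher and 0 called lower, beside 21.1% and 22.1% of all tested genes. Again 5 of the 8 had passed the filter only through LPS-MIC-1. Of the 5 members over 1 FPKM in every group, 3 were called higher and 0 lower, beside 14.3% and 19.9% of the 8567 genes of that kind. This comparison shares its LPS-MIC-1 libraries with the one above. By the adjusted p alone 8 were higher and 1 lower, beside 29.9% and 30.5%. Without overlap between groups, 9 were higher and 1 lower, where 40.3% and 42.7% of all tested genes did not overlap. An unadjusted p under 0.05 by limma gave the same counts, but no share of all tested genes was taken there. Gstp1 had a log2 fold change of 7.03 (SE 0.102), Gstm1 of 4.45 (SE 0.0861) and Gsto1 of 2.79 (SE 0.0931). Gpx1 was lower in all LPS-MIC-1 libraries than in control, by a log2 difference of -0.91 (SE 0.102, adjusted p = 5.27e-05 by limma), which missed the fold threshold. Without LPS-MIC-1 replicate 3 it was -1.04, past that threshold. Gpx4 was higher in all LPS-MIC-1 libraries than in control, by 0.71 (SE 0.228, adjusted p = 0.0195 by limma), short of the threshold of 0.001. Mgst1 was listed at 0 in control, so no ratio is given.

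In gastrocnemius, all 10 genes were present in every library. Gstp1 was the most abundant, with 737 ± 14.5 FPKM (SD, n = 3) in control and the 97th highest mean of all symbols. Gstm1 (209 ± 3.87), Gpx3 (145 ± 1.78), Gstm5 (116 ± 5.72), Gpx4 (95.6 ± 11.1) and Gpx1 (84.0 ± 7.65) followed, of which Gpx4 and Gpx1 overlapped. Gstm2 (66.4 ± 4.10), Gsto1 (53.6 ± 1.07), Mgst1 (23.7 ± 3.08) and Gsta4 (16.5 ± 1.95) completed the order, each apart from the next. All 15 muscle fibre markers were present, and their sum was 250897 to 255978 FPKM (control), 239271 to 242962 FPKM (LPS) and 189167 to 204034 FPKM (LPS-MIC-1), lowest in the last. In tissue RNA, fewer cells of a type and less RNA per cell cannot be told apart.

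**Figure D3:**
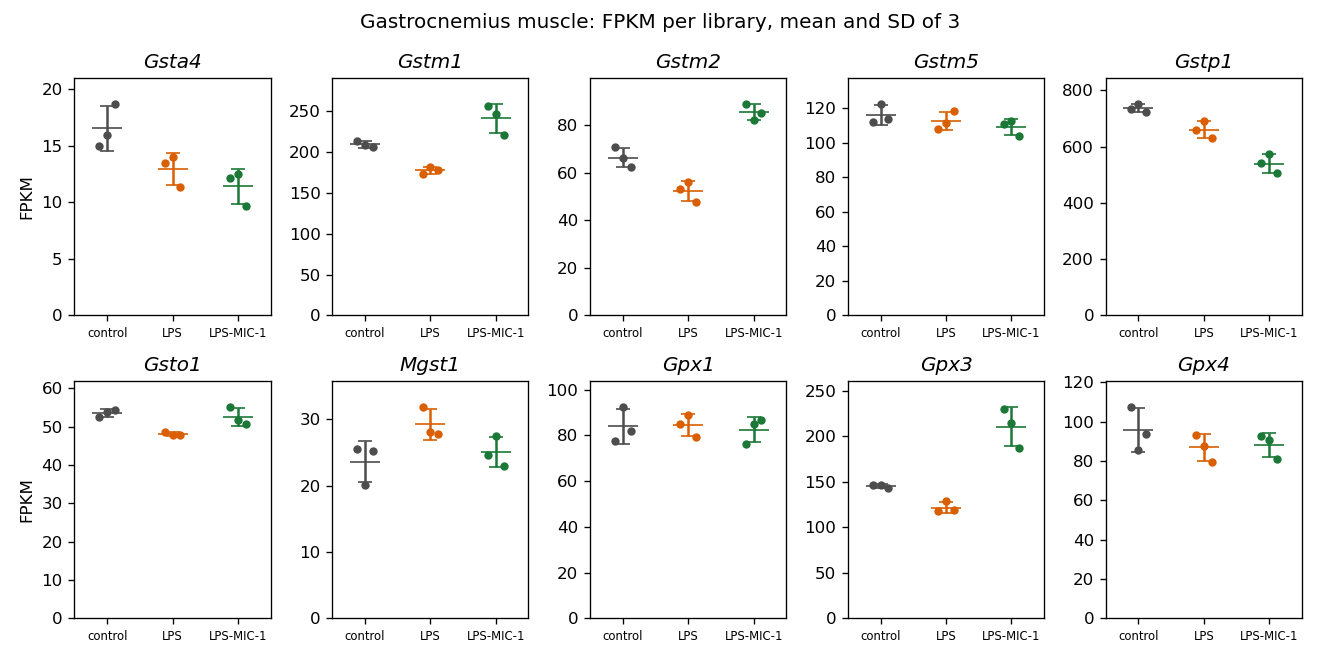
FPKM of each gene in each gastrocnemius library, with points for libraries, horizontal bars for means and error bars for SD (n = 3 per group). Gstm1, Gstm2 and Gpx3 are lowest in LPS and highest in LPS-MIC-1, whereas Gstp1 steps down from control through LPS to LPS-MIC-1.

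In muscle, the difference between LPS and control was at most 0.35 on the log2 scale for any of the 10 genes. At the 2-fold threshold 0 genes were called, beside 0.654% higher and 0.591% lower of all tested genes. By the adjusted p alone (limma, under 0.05), 4 were lower and 0 higher, beside 7.48% and 8.25% of all tested genes. At an unadjusted p under 0.05 (limma) there were 6 lower and 1 higher. No share of all tested genes was taken there, so nothing is read from these counts. The groups did not overlap for 6 genes lower in LPS (Gsta4, Gstm1, Gstm2, Gstp1, Gsto1 and Gpx3) and 1 higher (Mgst1), beside 17.7% and 18.8% of all tested genes. The median log2 difference of the 10 genes was -0.16, beside 0.01 for all genes. Among marker lists, the endothelial sum was 103 to 107 FPKM in control and 65.4 to 68.5 FPKM in LPS, the macrophage sum 19.7 to 22.6 and 25.4 to 29.8 FPKM, and the erythroid sum (5 of 7 genes in the values) 437 to 529 and 607 to 651 FPKM. The part of these shifts in the differences of the members was not tested.

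Gstm2 was the member lowered most among those past the adjusted p. It had 70.6, 66.2 and 62.4 FPKM in control and 53.1, 56.2 and 47.6 in LPS, a log2 difference of -0.35 (SE 0.0694, adjusted p = 0.0125 by limma), and kept an adjusted p under 0.05 with each library left out. Gstm1 went from 213, 209 and 206 to 173, 182 and 177 FPKM, a difference of -0.24 (SE 0.0517, adjusted p = 0.0176 by limma). Gpx3 went from 147, 146 and 143 to 118, 128 and 119 FPKM, a difference of -0.26 (SE 0.0706, adjusted p = 0.0426 by limma). Gsto1 went from 52.4, 53.9 and 54.4 to 48.7, 47.8 and 47.7 FPKM, a difference of -0.16 (SE 0.0388, adjusted p = 0.0298 by limma). For Gstm1, Gpx3 and Gsto1 the adjusted p rose over 0.05 under 4, 9 and 8 of the 18 alternatives, most of which leave out 1 library, and reached 0.0653, 0.124 and 0.0914.

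Other members did not pass. Gsta4 had 14.9, 15.9 and 18.7 FPKM in control and 13.4, 14.0 and 11.3 in LPS (log2 difference -0.35, SE 0.128, adjusted p = 0.108 by limma). Gstp1 had 735, 753 and 724 FPKM in control and 661, 691 and 630 in LPS (difference -0.16, SE 0.0504, adjusted p = 0.071 by limma). Mgst1 had 25.6, 20.1 and 25.3 FPKM in control and 31.9, 28.1 and 27.7 in LPS (difference 0.31, SE 0.109, adjusted p = 0.0945 by limma). For Gstm5, Gpx1 and Gpx4 the groups overlapped, with log2 differences of -0.04, 0.01 and -0.13. Over all 9 muscle libraries Gstm5 lay between 104 and 123 FPKM, Gpx1 between 76.1 and 92.5 and Gpx4 between 79.7 and 108.

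Among the 10 genes, the largest differences of LPS-MIC-1 muscle from LPS muscle were in Gpx3, Gstm2 and Gstm1, each higher by less than 2-fold. No member was called at the 2-fold threshold, beside 9.67% higher and 5.44% lower of all tested genes. At an unadjusted p under 0.05 (limma), where no share of all tested genes was taken, 4 were higher and 1 lower. By the adjusted p alone (limma) the counts were the same, beside 28.3% and 28.2% of all tested genes. Set against these shares, the counts say nothing particular about the 10 genes. Groups did not overlap for 4 higher and 2 lower members, beside 32.5% and 31.7%, and the median log2 difference was -0.01 for the members and for all genes.

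Gpx3 had 230.2, 214 and 187 FPKM in LPS-MIC-1, above all LPS values (118, 128 and 119) and all control values. Its ratio of means was 1.73 and its log2 difference from LPS 0.79 (SE 0.0706, adjusted p = 2.79e-05 by limma). Gstm2 had 89.0, 82.3 and 85.1 FPKM in LPS-MIC-1, a ratio of 1.63 and a difference of 0.71 (SE 0.0694, adjusted p = 4.66e-05 by limma). Gstm1 had 256, 246 and 221 FPKM, a ratio of 1.36 and a difference of 0.44 (SE 0.0517, adjusted p = 0.000139 by limma). These 3 genes had been lower in LPS than in control, and in LPS-MIC-1 each stood above control as well. Of the 18 alternatives run on each, none took the difference from LPS past an adjusted p of 0.05.

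Gstp1, the most abundant member, went the other way. It had 541, 572 and 505 FPKM in LPS-MIC-1, below all LPS values, a log2 difference of -0.29 (SE 0.0504, adjusted p = 0.00125 by limma). Its paralog Gstp2 had 207 ± 5.37 FPKM (SD, n = 3) with LPS alone and 161 ± 11.7 with MIC-1 before it, a difference of -0.37 (SE 0.0495, adjusted p = 0.000313 by limma). Within each muscle library the ratio of Gstp1 to Gstp2 lay between 3.14 and 3.56.

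Gsto1 had 55.1, 51.8 and 50.5 FPKM in LPS-MIC-1 against 48.7, 47.8 and 47.7 in LPS, a log2 difference of 0.13 (SE 0.0388, adjusted p = 0.0229 by limma). Its adjusted p rose over 0.05 under 5 of the 18 alternatives, some of which leave out 1 library. Among the 5 was quantile normalization, where the difference was 0.03 with an adjusted p of 0.448 (limma). That scaling moved the median of all genes by -0.11 and the share of higher genes among those called from 64.0% to 53.9%. Under it Gstm5 (-0.13, adjusted p = 0.0247) and Mgst1 (-0.34, adjusted p = 0.022) passed the adjusted p as lower (limma). Mgst1 was lower in all LPS-MIC-1 libraries (24.6, 27.5 and 23.0 FPKM) than in LPS, by -0.22 (SE 0.109, adjusted p = 0.113 by limma). Gsta4, Gstm5, Gpx1 and Gpx4 overlapped between the groups. Their log2 differences were -0.18, -0.05, -0.03 and 0.02, and the intervals of 2 standard errors ran from -0.15 to 0.05 for Gstm5, from -0.19 to 0.12 for Gpx1 and from -0.17 to 0.21 for Gpx4. The sign of the Gpx4 difference turned under quantile normalization, to -0.05.

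Markers of other cell types moved with the LPS-MIC-1 group in muscle. The neutrophil list (8 of 9 genes in the values) summed to between 1.76 and 2.02 FPKM with LPS and between 14.7 and 19.9 FPKM with MIC-1. The endothelial list (8 genes) summed to between 65.4 and 68.5 FPKM with LPS and between 107 and 123 FPKM with MIC-1, so both lists were higher in all 3 LPS-MIC-1 libraries. The macrophage list, at 25.4 to 29.8 FPKM with LPS, stood at 41.1, 38.4 and 205 FPKM with MIC-1, the last being replicate 3. Their part in the differences of Gpx3, Gstm1, Gstm2 and Gstp1 was not tested. Without LPS-MIC-1 replicate 3, the library with the high macrophage sum, the differences were 0.87 for Gpx3, 0.50 for Gstm1, 0.71 for Gstm2 and -0.25 for Gstp1.

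**Figure D4:**
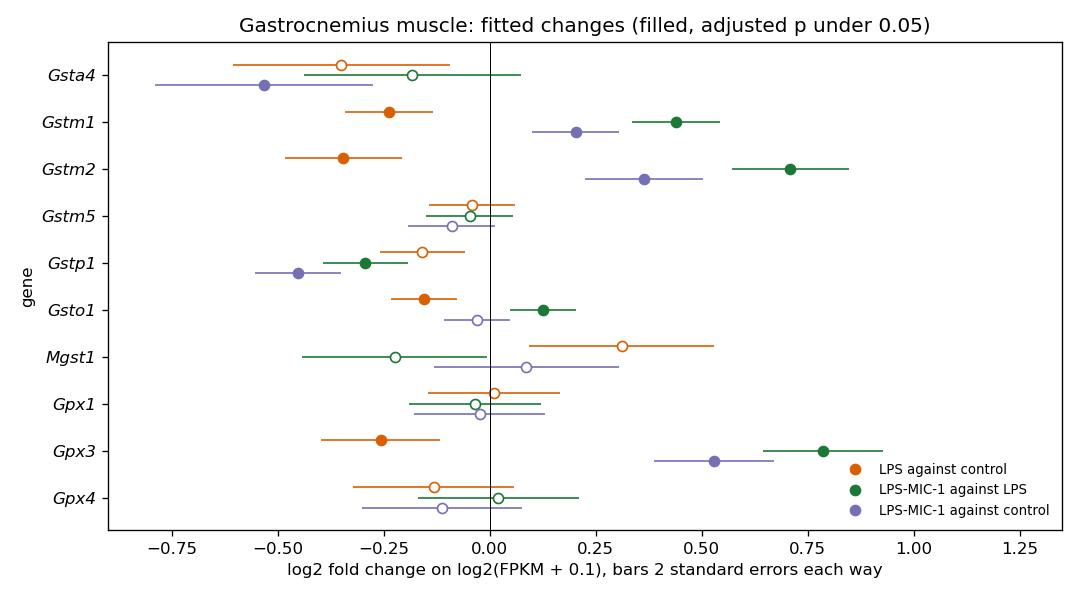
Fitted log2 fold changes in gastrocnemius for the 3 comparisons, with bars of 2 standard errors to each side and filled points where the adjusted p is under 0.05. All points lie within a log2 difference of 0.79 of zero, and Gpx3, Gstm2, Gstm1 and Gsto1 show filled points on both sides. For LPS against control, the adjusted p of Gstm1, Gpx3 and Gsto1 rose over 0.05 under 4, 9 and 8 of the 18 alternatives. That of Gsto1 for LPS-MIC-1 against LPS did so under 5.

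Against control, LPS-MIC-1 muscle again had 0 genes called, beside 9.33% higher and 6.12% lower of all tested genes. By the adjusted p alone (limma), 3 were higher and 2 lower, as without overlap between groups. Beside these stood 30% and 28.5% of all tested genes (33.4% and 31.1% without overlap). An unadjusted p under 0.05 (limma) gave the same counts, but no share of all tested genes was taken there. Gpx3 was higher by 0.53 (SE 0.0706, adjusted p = 0.000285), Gstm2 by 0.36 (SE 0.0694, adjusted p = 0.00213) and Gstm1 by 0.20 (SE 0.0517, adjusted p = 0.00954). Gstp1 was lower by a log2 difference of -0.45 (SE 0.0504, adjusted p = 9.75e-05). Gsta4, at 12.1, 12.5 and 9.65 FPKM, was below every control library, with a difference of -0.53 (SE 0.128, adjusted p = 0.00729). The other 5 did not pass, with log2 differences between -0.11 (Gpx4) and 0.09 (Mgst1), but under quantile normalization Gsto1 (-0.15, adjusted p = 0.00309) and Gstm5 (-0.16, adjusted p = 0.00863) were past the adjusted p as lower (limma).

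Because FPKM is per length, the make-up of the transferase sum can be read within a library. In cultured cells, the share of Gsto1 was 60.4% ± 1.64 (SD, n = 3), 33.7% ± 0.138 and 9.51% ± 0.436 for control, LPS and LPS-MIC-1. Gstp1 held 21.9% ± 0.392, 50.03% ± 0.417 and 65.2% ± 0.526 in the same order. Gsta4 held at most 1.34% in any control or LPS library and 13.4 to 14.7% in LPS-MIC-1. Among the transferases that make up this sum, Gsto1 thus led in the control libraries and Gstp1 in the other groups. Transferases outside the sum were not ranked with them.

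In muscle the sum itself, from control through LPS to LPS-MIC-1, was 1223 ± 18.1, 1094 ± 35.8 and 1064 ± 57.8 FPKM. Gstp1 held 60.3% ± 0.349, 60.4% ± 0.873 and 50.7% ± 1.04 of it. Gstm1 held 17.1% ± 0.299, 16.2% ± 0.440 and 22.7% ± 0.732, and Gstm2 5.43% ± 0.305, 4.78% ± 0.254 and 8.05% ± 0.553. The shares in LPS-MIC-1 did not overlap with those of the other groups for any of these 3 genes. Gstm5 held 9.16 to 11.2% of the sum over the 9 libraries, and its LPS and LPS-MIC-1 shares overlapped. The ratio of Gstm2 to Gstm5 was 0.465 ± 0.0551 with LPS and 0.784 ± 0.0472 with MIC-1. Among the peroxidases, Gpx3 held 44.7% ± 0.470, 41.5% ± 1.52 and 55.1% ± 2.45 of the sum of the 3.

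**Figure D5:**
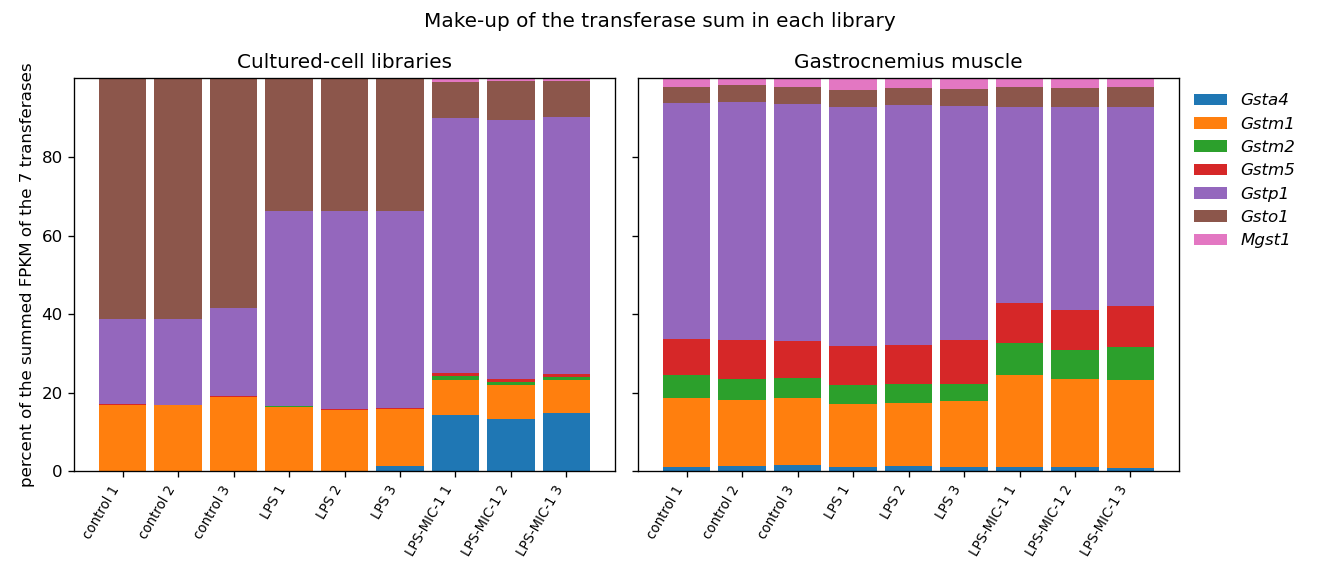
Share of each transferase in the summed FPKM of the 7, per library, as percent. In cultured libraries Gsto1 gives way to Gstp1, from 60.4% and 21.9% in control to 9.51% and 65.2% in LPS-MIC-1, and in muscle Gstp1 stays at 49.7% or more of the sum in every library.

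Further genes of the glutathione system were examined as lists. In cultured cells, 16 of 21 other transferases were tested. LPS against control gave 5 called higher and 2 lower, beside 10.9% and 10% of all tested genes. LPS-MIC-1 against LPS gave 6 and 5, beside 24.3% and 25.6%. For the 6 over 1 FPKM in every group, the counts were 0 and 2, then 2 and 1. Of all genes of that kind, the shares were 9.97% and 11.1%, then 18.9% and 23.1%. The theta class gene Gstt4 was listed at 0 in control and had 8.80 ± 1.61 FPKM (SD, n = 3) with LPS. Gsta1, an alpha class gene like Gsta4, had 0.0879, 0 and 1.69 FPKM in the LPS libraries and 353, 421 and 515 FPKM with MIC-1. It was tested only through LPS-MIC-1, as were 4 of the 16 in all, so its difference followed from the filter. Of the 5 other peroxidases 1 was tested in cells, Gpx8, an enzyme of the endoplasmic reticulum, which had 0, 0 and 0.792 FPKM with LPS and 227, 195 and 257 FPKM with MIC-1, and likewise passed the filter only through LPS-MIC-1.

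Of 21 tested genes of glutathione synthesis and recycling, LPS against control gave 7 called higher and 4 lower in cultured cells, and LPS-MIC-1 against LPS the same numbers. The shares of all tested genes were again 10.9% and 10%, then 24.3% and 25.6%. For the 19 over 1 FPKM in every group, the counts were 6 and 4, then 5 and 4. Of all genes of that kind, the shares were 9.97% and 11.1%, then 18.9% and 23.1%. The largest change of LPS against control was in Cth, which makes cysteine from cystathionine (log2 fold change 3.62 in LPS against control, SE 0.191, adjusted p = 1.46e-06 by limma). In LPS-MIC-1 against LPS it was in Ggt7, a gamma-glutamyltransferase family gene with 0.195 ± 0.0422 and 3.22 ± 0.480 FPKM (SD, n = 3), which is 1 of 2 genes of the list tested only through LPS-MIC-1. Of 8 tested genes of conjugate export and removal, the first comparison gave 3 higher and 0 lower, and the second 2 and 3. The shares of all tested genes are those given for the list before. Esd, which hydrolyses S-formylglutathione, led the first comparison with 2.46 (SE 0.0854, adjusted p = 1.91e-07 by limma). The exporter gene Abcc3 had 1.73 ± 0.238 FPKM with LPS and was listed at 0 with MIC-1. Of 9 tested genes of selenoprotein synthesis and selenium supply, 0 were higher and 2 lower in the first comparison, then 2 and 1 in the second. The same shares of all tested genes stand beside these counts. Sepp1, the plasma selenium carrier selenoprotein P, had 1.45 ± 0.279, 0.266 ± 0.0658 and 5.93 ± 1.17 FPKM from control to LPS-MIC-1.

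In muscle the same lists held 1 gene called between LPS and control, beside 0.654% higher and 0.591% lower of all tested genes. Chac1, which degrades glutathione, had 97.3, 103 and 93.9 FPKM in control mice, 6.60, 8.66 and 8.03 after LPS, and 115, 115 and 103 after MIC-1 and LPS, so the LPS group stood apart below both others. Its log2 fold change was -3.65 (SE 0.0959, adjusted p = 4.34e-07 by limma) in LPS against control and 3.83 (SE 0.0959, adjusted p = 1.43e-08 by limma) in LPS-MIC-1 against LPS. Of the 19 tested genes of its list, 3 were called higher and 1 lower in the latter comparison, beside 9.67% and 5.44% of all tested genes. The same shares stand beside the other lists in that comparison. Among the 8 tested other transferases 1 was called, Gstt2, which went from 2.22 ± 0.490 to 0.591 ± 0.277 FPKM. Gpx8 went from 4.35 ± 0.710 to 2.07 ± 0.542 FPKM and the exporter gene Abcc5 from 17.2 ± 0.931 to 7.50 ± 0.461, each the 1 gene called of its list. Of 7 tested selenium genes 0 were called in either comparison. By the adjusted p alone (limma), the first gave 1 higher and 0 lower and the second 1 and 1. Of all tested genes, the shares were 8.25% and 7.48%, then 28.3% and 28.2%.

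For the member with the widest range of group means in each experiment, the tested genes with the most similar centred log2 values over the 9 libraries were sought, as a description with no test. For Gsta4 in cultured cells these were Serpinh1, a collagen chaperone, Fscn1, an actin-bundling protein, and Sod3, the extracellular superoxide dismutase, with root mean square differences of 0.318, 0.387 and 0.396 on the log2 scale. Mean levels of Serpinh1 were 0.0324, 0.337 and 345 FPKM from control through LPS to LPS-MIC-1. Gsta4 and these genes exceeded a mean of 1 FPKM in LPS-MIC-1 alone, so all passed the filter only through that group. Their likeness cannot be told apart from its change of marker profile. For Gpx3 in muscle the closest genes were D4Wsu53e, Aspscr1 and Camk2b, with differences of 0.0671, 0.0706 and 0.0720. D4Wsu53e averaged 354 ± 3.94, 270 ± 7.84 and 487 ± 24.9 FPKM in the same order (SD, n = 3).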

How the data were processed

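Expression values of 18 mouse RNA-seq libraries were analysed. Reads had been quantified by pseudoalignment (kallisto) and collapsed to genes (tximport) by the authors, who deposited FPKM for each gene and library. The submitters' processing notes name build mm9, and no coordinates were used. For 6 pairs of groups the authors also deposited output of a count model. Its base means are a signal that the authors made by scaling counts with size factors and averaging the libraries of a pair. They served here to judge depth, and the model's fold changes and p-values were not used. In the muscle values 11 further columns carry no name, and 9 of them hold per-sample values of unstated samples; none was used. Base means summed to 15338200 to 18734400 in the tables of cultured cells. Read totals per library are unknown, so no counting interval is given, and values near 0 FPKM rest on few reads.

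limma 3.58.1 (R 4.3.3) was run separately on cultured cells and muscle, on log2(FPKM + 0.1), a scale that understates changes of low genes. The model had 1 mean per group, a trended prior and a spread shared by all 9 libraries. Genes needed a mean FPKM over 1, the Benjamini-Hochberg adjustment covered every tested gene, and thresholds followed the study's methods. The fit was tested on simulated data with known changes. Permutation tests were exact and two-sided. Python 3.11.15 with matplotlib 3.10.9 drew the figures. RefSeq symbols (assembly GRCm38) were used for neighbours alone, and all 10 matched.

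The members and lists were chosen with earlier results of these data known. Named genes were the 10 members, the gene with the largest change among called genes of each pathway list (in each experiment, for LPS against control and LPS-MIC-1 against LPS), the 3 genes closest to the member of widest range, and the most abundant markers. Gstp2 and Gstm4 were named outside this rule, as neighbours of members, after their values were seen. Alternatives were added constants of 1 and 0.01, no filter beyond a value above 0 in 3 libraries, a stricter filter at 5 FPKM, quantile and median-ratio scaling, an untrended prior, fits of the 6 libraries of a pair, a replicate block, no fold threshold, and each library left out. Omitting LPS replicate 3 and LPS-MIC-1 replicate 1 of the cultured cells together was added after seeing the data.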

Additional observations from a re-analysis of the deposited data

Results flagged for a closer look

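In 6 cases every library of a group moved one way in cultured cells and the opposite way in muscle. Groups without overlap were common among all tested genes. By comparison and direction, their share was 39.4% to 43.7% in cells and 17.7% to 33.4% in muscle. The difference between the experiments was not tested, since their values were normalised separately. For LPS against control, Gstm2 had a log2 difference of 0.71 in cells, where it stayed below 0.14 FPKM, and -0.35 in muscle, and Gstp1 had 1.25 in cells and -0.16 in muscle. For LPS-MIC-1 against LPS, Gstp1 had 5.78 in cells and -0.29 in muscle, and Mgst1 had 7.87 and -0.22. For LPS-MIC-1 against control, Gsta4 had 11.93 in cells and -0.53 in muscle, and Gstp1 had 7.03 and -0.45. These comparisons share libraries, and in cultured cells those of LPS-MIC-1 carry the change of marker profile given above. Gstm2, Mgst1 and Gsta4 passed the cultured filter only through LPS-MIC-1. The cultured differences of Mgst1 and Gsta4 therefore followed from the filter. For LPS against control, Gstm2 in cells and Gstp1 in muscle were short of the adjusted p (0.0294 and 0.071 by limma). So was Mgst1 in muscle for LPS-MIC-1 against LPS (0.113 by limma).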

How the results depend on the processing

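With the replicate number as a block, the counts called were 1 higher and 1 lower for LPS against control in cultured cells, 8 and 0 for both comparisons of LPS-MIC-1, and 0 throughout muscle, as without it. For 5 of the 8 the difference followed from the filter. Shares of all tested genes were taken only without the block, as given above. In muscle, LPS against control, the block took Gsto1 past an adjusted p of 0.05 (0.0627) and brought Gstp1 under it (0.0196, limma). Samples of the same number correlated between -0.0757 and 0.0823 in their deviations from group means, and 1 of 9 cultured and 5 of 9 muscle libraries correlated best with their own number, so the numbers were not taken to pair samples.

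Without the fold threshold, cultured LPS against control had 2 lower, beside 19.3% of all tested genes. Cultured LPS-MIC-1 against control had 1 lower, beside 30.5%. In muscle, LPS against control had 4 lower, beside 7.48%. Muscle LPS-MIC-1 against LPS had 4 higher and 1 lower, beside 28.3% and 28.2%. Muscle LPS-MIC-1 against control had 3 higher and 2 lower, beside 30% and 28.5%. Under quantile normalization, cultured LPS-MIC-1 against control had 1 member called lower, Gpx1, beside 2372 of all 10877 tested genes. When single libraries were left out it had 0 to 1, and no share of all tested genes was taken there.

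Direction turned only for differences short of the thresholds. Under quantile normalization these were, in cells, Gstm5 (-0.51) and Gpx3 (-0.033) in LPS against control and Gpx1 (-0.26) in LPS-MIC-1 against LPS, and, in muscle, Gpx4 (-0.050) against LPS and Mgst1 (-0.078) against control in LPS-MIC-1. With 1 library left out, ranges were -0.020 to 0.33 for Gstm5 in cultured LPS against control, -0.044 to 0.082 for Gpx1 in muscle LPS against control, -0.079 to 0.022 for Gpx1 and -0.041 to 0.080 for Gpx4 in muscle LPS-MIC-1 against LPS, and -0.026 to 0.15 for Mgst1 and -0.078 to 0.048 for Gpx1 in muscle LPS-MIC-1 against control.

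The cause of these turns was not tested. Of single-gene values, 566 of the alternatives in cells and 491 in muscle kept direction and side of the adjusted p, 26 in muscle lost it and 10 gained it.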

Other observations

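The base means that the authors deposited for muscle control against LPS differ from those of the other muscle comparisons. The differences go both ways, far lower for some genes and far higher for others. In that table the muscle creatine kinase gene Ckm has a base mean of 9.86, against 548507 and 583546 in the tables of LPS-MIC-1 against LPS and against control. Gsta4 has 13971, against 132 and 153, and Gpx3 has 149, against 3131 and 3369. That table lists 21541 symbols and sums to 35868800, whereas the others list 21401. Its source was not tested, and no result here uses it.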
